A study of Mus musculus with 2 samples.

Results

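Rab genes encode small GTPases that direct membrane traffic, and here the whole family was followed in RNA recovered with an antibody against HuR, an RNA-binding protein encoded by Elavl1. Members were the rows whose gene symbol is Rab followed by a number and at most 1 letter, which gave 56 of the 38396 rows of the table. Both libraries came from epididymal white fat of mice 6 weeks old and were immunoprecipitated with the same HuR antibody (Santa Cruz). The library labelled control came from HuRf/f littermates without Cre, and the library labelled HuR-FKO from AdipoQ-Cre;HuRf/f mice, so both genotypes carried floxed HuR alleles on a line backcrossed to C57BL/6. The adiponectin promoter drives Cre in adipocytes, and the other cells of the fat pad keep HuR. With 1 library for each genotype, nothing could be checked against replicates, and no p-value appears. The number of animals behind a library is not given in the sources used.

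Rab proteins act as switches. Exchange factors load them with GTP on a given membrane, where they recruit effectors that move, tether or fuse vesicles. GTPase-activating proteins then return them to the GDP form, and GDP dissociation inhibitors extract that form from the membrane. In fat cells Rab proteins are best known for carrying the glucose transporter GLUT4 to the cell surface after insulin, for secretion of adipokines and for a place on the lipid droplet. HuR binds U-rich and AU-rich stretches, mostly in the 3' UTR, which is the part of an mRNA after its coding sequence.

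Levels are in FPKM, which counts fragments by transcript length and by the library's mapped total. Of 21127 protein-coding rows, 5571 reached 5 FPKM in either library and were compared as the log2 of control over HuR-FKO, with values under 0.1 FPKM raised to 0.1. The table gives no depth, and the steps between its lowest values put the libraries at about 11100000 fragments for control and 18500000 for HuR-FKO. The median log2 ratio of the compared genes was -2.22, a 4.66-fold difference with the HuR-FKO value as the higher, and each Rab ratio is also given relative to this median. Elavl1 itself was listed at 16.6 FPKM in control and 26.1 FPKM in HuR-FKO. The targeted gene was thus 1.57-fold higher under the knockout label, and 2.97-fold toward control relative to the median, so genotypes are used below only as labels. The study itself reports that HuR was lacking in this depot of HuR-FKO mice, by western blot and real-time PCR. All 7 adipocyte markers were present in both libraries, with a summed level of 7054 FPKM in control and 19858 FPKM in HuR-FKO. Macrophage markers summed to 14.0 and 44.6 FPKM, with Cd68 listed at 0 in both. Endothelial markers summed to 16.5 and 30.8 FPKM, stromal progenitor markers to 141 and 530 FPKM, and red cell and platelet markers to 840 and 1802 FPKM. These sums follow their most abundant genes, since Alas2 (8.14 and 1.92 FPKM), Pf4 (49.5 and 41.4 FPKM) and Pdgfra (0.512 and 0.170 FPKM) were higher in control. Epithelial markers summed to 2.46 and 6.94 FPKM and lymphocyte markers to 0.263 and 5.07 FPKM. Of the lymphocyte markers, Cd79a was listed at 0 in control. The part of these levels in the Rab ratios was not tested. Fewer cells of a type and less RNA per cell cannot be told apart here, and neither can binding by HuR and abundance of an mRNA, since neither input nor IgG RNA was analysed here.

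Of the 56 Rab genes, 45 were above 0 in either library and 11 were listed at 0 in both. Over all protein-coding rows, 30.4% were listed at 0 in both. The summed level of the family was 173 FPKM in control and 529 FPKM in HuR-FKO, a 3.06-fold difference. The members held a similar order in both libraries, with a Spearman rho of 0.79 and a Pearson r of log2 levels of 0.77 over the 38 members above 0 in both. Over 11324 protein-coding genes the same measures were 0.78 and 0.41. Low values were not raised for the Pearson r. The protein-coding genes reach down to values such as Gm21983 at 3.97e-17 FPKM in control and 8.19e-17 FPKM in HuR-FKO. The r of 0.77 and that of 0.41 therefore cover unlike ranges and are not like for like, and the effect of the lowest values on r was not tested. These correlations are across genes of the same 2 libraries and describe those libraries only.

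**Figure D1:**
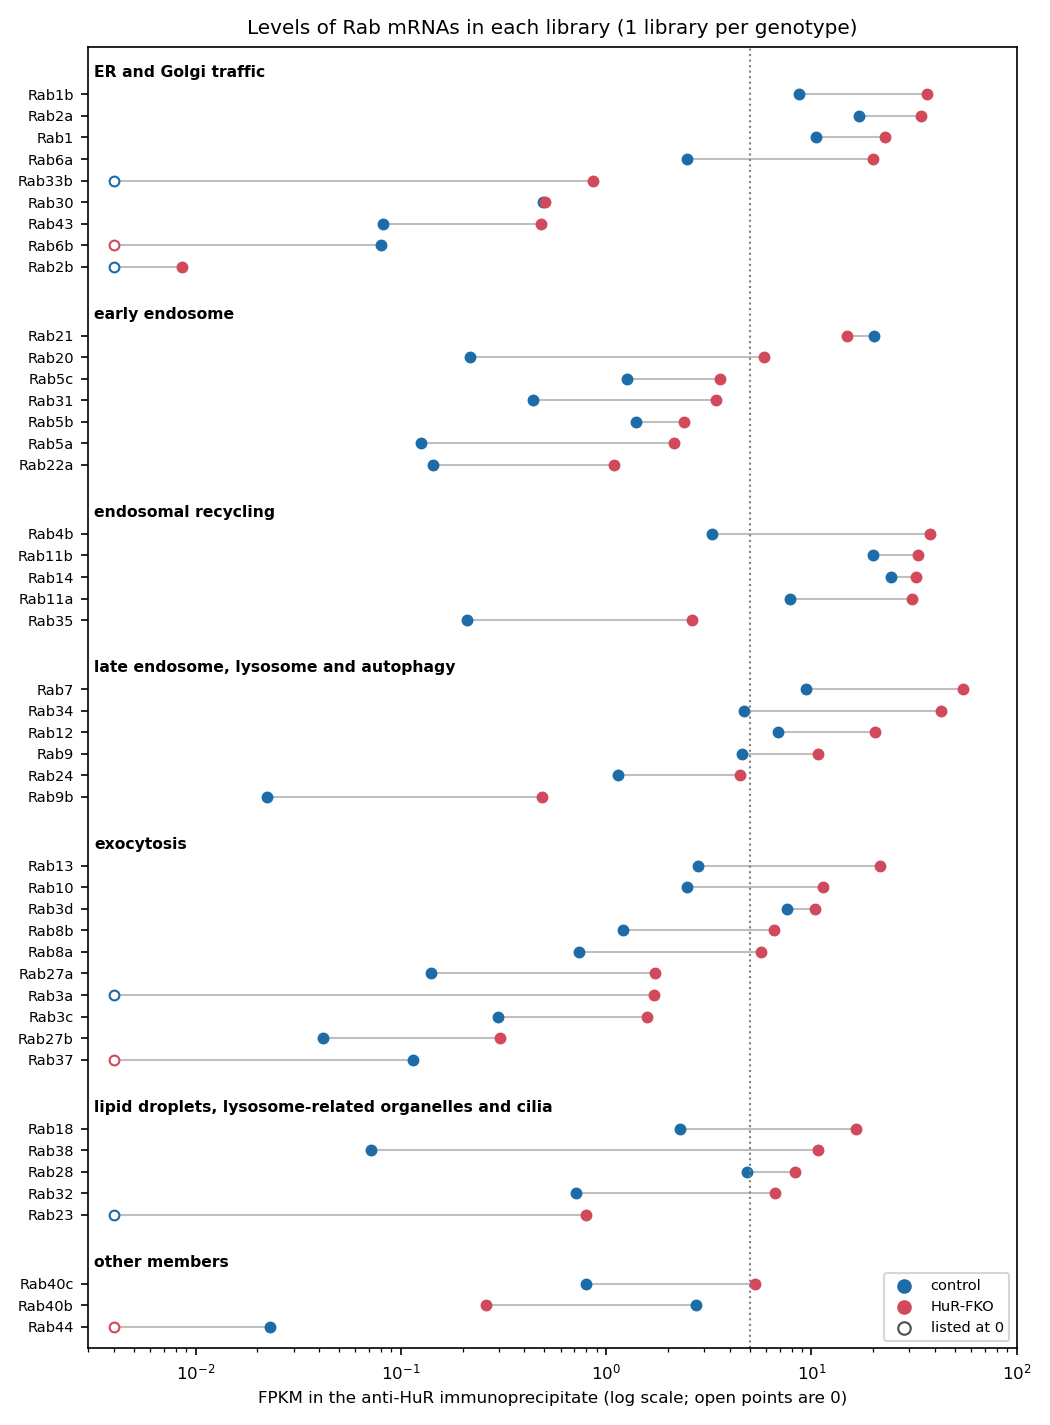
FPKM of each Rab gene above 0 in either library (log axis), grouped by role, with the library labelled control in blue and the library labelled HuR-FKO in red. Open points are listed at 0 and the dotted line marks 5 FPKM. The HuR-FKO point lies to the right for 40 of the 45 genes, beside 85.4% of the 14710 protein-coding rows above 0 in either library.

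In control 10 members reached 5 FPKM, and in HuR-FKO 24 did so, those 10 included. These 24 of 56 members were compared, and 26.4% of all protein-coding rows met the same filter. The other 14 entered only through their HuR-FKO value, so the filter fixed their direction and the counts that follow are a description. Of the 24, 23 were higher in the library labelled HuR-FKO and 18 (75%) were at least 2-fold higher there, beside 82.4% of all compared genes. In control, 0 of 24 were at least 2-fold higher, beside 3.21% of all compared genes. Median centring, which shifts every log2 ratio by 2.09, turned this split to 5 members at least 2-fold higher in HuR-FKO and 6 in control. Upper-quartile scaling, a shift of 1.98, gave 6 and 5. Rab1, Rab9 and Rab12 changed direction under both scalings. So did Rab14, Rab3d, Rab11b, Rab28 and Rab2a, which were under 2-fold apart as deposited. Rab11a and Rab1b changed direction under median centring only. The median log2 ratio of the 24 was -2.33, a difference of -0.11 from all genes, and 12 members lay on each side of the all-gene median. Relative to that median, 7 members were at least 2-fold toward control (background 21.8%) and 4 were at least 2-fold toward HuR-FKO (background 25%). Among the 10 members at 5 FPKM in both libraries, 5 were at least 2-fold higher in HuR-FKO, beside 68.6% of the 2231 genes that met the same condition. Their median log2 ratio was -1.06, and that of those 2231 genes was -1.52. The members ranged in log2 ratio from -6.74 to 0.44, with an SD of 1.55 across the 24 beside 1.88 across all compared genes. Of the 24, 9 share exon sequence with another annotated gene, and without them the difference of medians from all genes was 0.64. The all-gene median there still included genes with such an overlap.

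**Figure D2:**
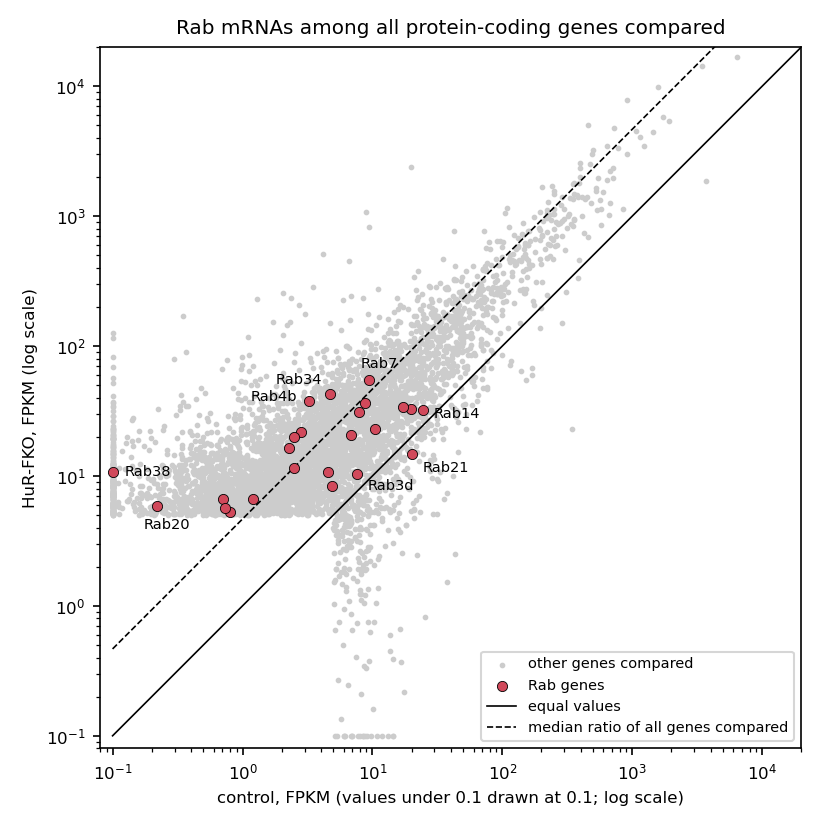
FPKM in the library labelled control (x axis) and the library labelled HuR-FKO (y axis) for the 5571 protein-coding genes compared, both on log axes, with the 24 Rab genes in red. The solid line marks equal values and the dashed line the median ratio of all genes. Rab21 is the only Rab gene below the solid line, and Rab20 and Rab38 lie far above the dashed line at low control values.

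The U-richest 30 bases of the longest annotated 3' UTR are shown for Rab14, near the top of the ratio scale, and for Rab20 and Rab4b, the 2 lowest ratios among compared members at 0.1 FPKM or more in both libraries, because U-rich RNA is what HuR is known to bind. Each is written 5' to 3' on the mRNA strand, and capitals mark AUUUA or runs of 5 or more U.
Rab14: uuaauagcuuuaucUUUUUUUUUUaauuuu
Rab4b: ccgcuguugcaagucuguuAUUUAuuaccu
Rab20: ugugauucauauauggucuuccuguuugau
All 3 genes lie on the minus strand of mm10, with the windows at chr2:35181650-35181679, chr7:27168478-27168507 and chr8:11453643-11453672. The Rab14 window holds 21 U, and 27.5% of the 5496 compared genes with an annotated 3' UTR have a window at least this rich. Rab4b and Rab20 have 13 and 15 U in their richest windows, which 91.0% and 79.3% of genes reach. The windows do not order the family by ratio. Rab38, with the lowest ratio of all, has a window of 23 U, and Rab18 and Rab8a have 27 U, while Rab3d has 18. A U-rich window is a feature of the annotation and was not measured as a binding site.

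The role lists that follow are small, and their counts at least 2-fold higher in HuR-FKO are to be read beside the 82.4% of all compared genes. Early endosome members, which sort freshly internalised cargo, ranged from the top of the scale to near its bottom. Rab21, which directs the traffic of integrins, was listed at 20.1 FPKM in control and 14.9 FPKM in HuR-FKO, a log2 ratio of 0.44. It was the only compared member higher in the library labelled control, where 7.41% of all compared genes were higher, and it passed from rank 2 of the 24 in control to rank 14 in HuR-FKO. Rab20, known from the maturation of phagosomes, was listed at 0.218 FPKM in control and 5.88 FPKM in HuR-FKO, a log2 ratio of -4.75. That control value corresponds to about 2.87 fragments, so the ratio is imprecise. The Rab5 proteins, which drive fusion of early endosomes, stayed under 5 FPKM in both libraries. Rab5a was listed at 0.126 and 2.14 FPKM, Rab5b at 1.40 and 2.39 FPKM and Rab5c at 1.27 and 3.60 FPKM, in the order control and HuR-FKO. Rab5a was thus the lowest of the set in both libraries, and its exons overlap those of Pp2d1 on the opposite strand. Rab22a, an early endosome GTPase, was at 0.143 and 1.09 FPKM and its close relative Rab31 at 0.442 and 3.42 FPKM, with like log2 ratios of -2.93 and -2.95.

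Recycling members, which return cargo from endosomes to the plasma membrane, included the most abundant Rab mRNA of the control library. Rab14, which acts between the Golgi, endosomes and GLUT4 vesicles, was listed at 24.5 FPKM in control and 32.1 FPKM in HuR-FKO, a log2 ratio of -0.39. Rab11b was listed at 19.98 and 33.0 FPKM (-0.72) and its paralog Rab11a at 7.84 and 31.0 FPKM (-1.98). Both encode the GTPase of the recycling endosome, and the level of Rab11a relative to Rab11b was 0.393 in control and 0.939 in HuR-FKO. With a difference of -1.26 in log2 ratio, this was the most unequal paralog pair among those compared with both members at 0.1 FPKM or more. The row of the processed pseudogene Rab11b-ps2 was listed at 2.78 FPKM in control and 0 in HuR-FKO. Rab11b also shares exon sequence with Gm17251 on the opposite strand, at 0.963 and 8.52 FPKM. Whether reads of Rab11b were divided with either row was not tested. Rab4b, which serves rapid recycling, was listed at 3.26 FPKM in control and 37.9 FPKM in HuR-FKO. Its log2 ratio was -3.54, or -1.32 relative to the all-gene median. The exons of Rab4b overlap those of Gm21983 on the same strand, at 3.97e-17 and 8.19e-17 FPKM. How reads shared by the pair were assigned is not given. Rab35, another GTPase of rapid recycling, was at 0.209 and 2.63 FPKM. Rab15, Rab17 and Rab25 were listed at 0 in both libraries. Rab17 and Rab25 are Rab proteins of epithelial cells. The epithelial markers were low but above 0 in both libraries, and a link with these Rab genes was not tested. Taking recycling as a list, 2 of 4 compared members were at least 2-fold higher in HuR-FKO, with a median ratio 0.87 above that of all genes.

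Of the 4 compared members of the route from the endoplasmic reticulum to the Golgi, all except Rab6a lay on the control side of the all-gene median. Rab2a, which acts in traffic between these compartments, was listed at 17.1 FPKM in control and 34.1 FPKM in HuR-FKO (log2 ratio -0.998). Rab1 and Rab1b both serve transport from the endoplasmic reticulum to the Golgi. Rab1 was listed at 10.5 and 22.9 FPKM (-1.12) and Rab1b at 8.69 and 36.6 FPKM (-2.07). The order of these paralogs changed, since Rab1 was 1.21-fold the level of Rab1b in control and 0.625-fold in HuR-FKO. Rab6a, a GTPase of retrograde traffic at the Golgi, was listed at 2.47 and 19.8 FPKM (-3.01). Its exons overlap those of Mrpl48 on the opposite strand, which was at 26.0 and 165 FPKM, and the reads of the pair may not have been separated. The study's methods describe strand-specific libraries for its RNA-seq, but how the counting used strand is not given. In this list 3 of 4 compared members were at least 2-fold higher in HuR-FKO, with a median 0.62 above that of all genes. Rab30, another Golgi protein, was nearly equal at 0.492 and 0.501 FPKM. Rab33b, which links the Golgi to autophagy, was listed at 0 in control and 0.859 FPKM in HuR-FKO. Rab2b was listed at 0 and 0.00859 FPKM, and Rab6b at 0.0798 FPKM in control and 0 in HuR-FKO.

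Late endosome, lysosome and autophagy members held the highest Rab level of the library labelled HuR-FKO. Rab7, which directs fusion of late endosomes and autophagosomes with lysosomes, was listed at 9.44 FPKM in control and 54.7 FPKM in HuR-FKO, a log2 ratio of -2.53. Rab34, known for the positioning of lysosomes and for the assembly of cilia, was listed at 4.70 and 42.7 FPKM (-3.18). These genes moved from ranks 6 and 12 in control to ranks 1 and 2 in HuR-FKO. Rab9, which returns receptors from late endosomes to the trans-Golgi network, was listed at 4.57 and 10.8 FPKM (-1.24). Rab12, which sends the transferrin receptor to degradation, was listed at 6.85 and 20.5 FPKM (-1.58). All 4 compared members were at least 2-fold higher in HuR-FKO, yet their median lay 0.16 above that of all genes, with Rab9 and Rab12 on the control side of the median and Rab7 and Rab34 on the other. Rab24, linked to autophagy, was at 1.14 and 4.49 FPKM and shares exon sequence with Prelid1 on the opposite strand, at 5.31 and 22.4 FPKM.

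**Figure D3:**
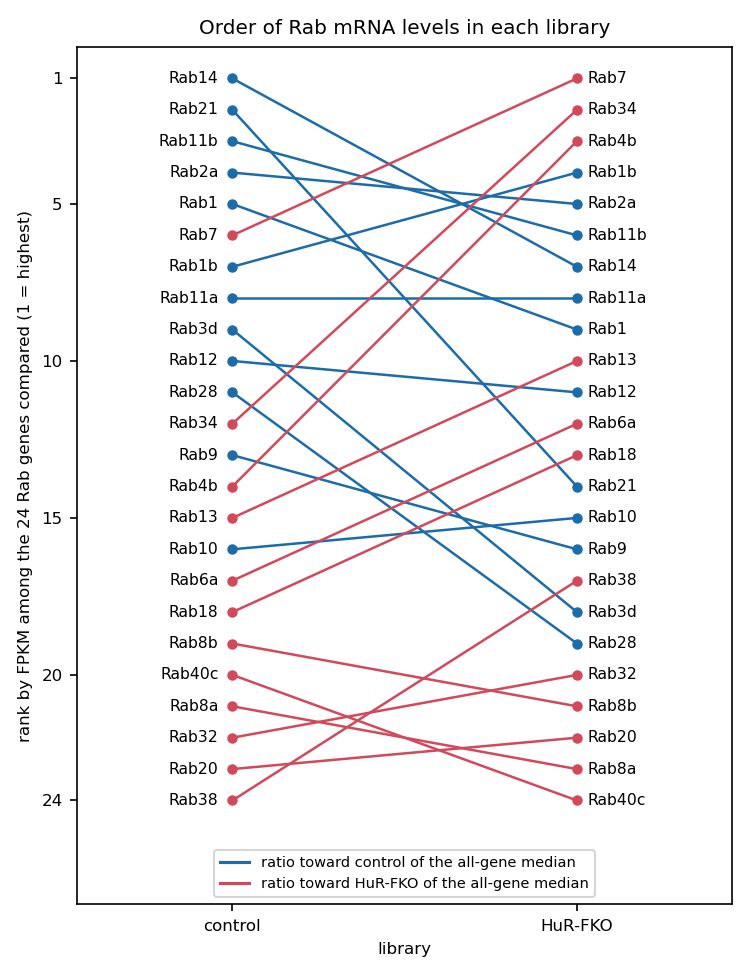
Rank by FPKM of the 24 compared Rab genes in the library labelled control (left) and the library labelled HuR-FKO (right), 1 being the highest. Blue lines are genes with a ratio toward control of the all-gene median and red lines genes on the other side. Rab21 drops from rank 2 to rank 14, and Rab34 and Rab4b climb from ranks 12 and 14 to ranks 2 and 3.

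Exocytosis members bring vesicles to the plasma membrane, and 4 of the 5 compared were under 3 FPKM in the library labelled control. Rab3d, a protein of secretory granules that adipocytes carry, was listed at 7.61 FPKM in control and 10.4 FPKM in HuR-FKO (log2 ratio -0.45). Rab10, the Rab protein best known for insulin-driven GLUT4 delivery in adipocytes, was listed at 2.49 and 11.4 FPKM (-2.20), within 0.02 of the median of all genes. Rab13, which acts at tight junctions and in GLUT4 delivery of muscle cells, was listed at 2.80 and 21.7 FPKM (-2.95). Rab3d thus lay near equal values, Rab10 at the typical ratio and Rab13 beyond it. Rab8a and Rab8b, which act in polarised secretion, were listed at 0.739 and 5.67 FPKM (-2.94) and at 1.21 and 6.60 FPKM (-2.45). In this list 4 of the 5 compared members, all except Rab3d, were at least 2-fold higher in HuR-FKO. Rab27a, which docks secretory lysosomes, stayed low at 0.140 and 1.74 FPKM, and Rab27b at 0.0419 and 0.305 FPKM. Rab3a, the synaptic vesicle Rab, was listed at 0 in control and 1.70 FPKM in HuR-FKO, and its exons overlap those of Mpv17l2, at 6.01 and 36.9 FPKM. Rab37 was at 0.115 FPKM in control and listed at 0 in HuR-FKO. The Rab genes tied to GLUT4 traffic were also read as a list, with 5 compared. Of these, 4 were at least 2-fold higher in HuR-FKO, beside 82.4% of all compared genes, and their median was 0.02 above that of all genes.

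Members of lipid droplets, lysosome-related organelles and cilia had the lowest median of the role lists with more than 1 compared member, a difference of -0.82 from all genes, with 3 of 4 at least 2-fold higher in HuR-FKO. Rab18, a GTPase found on lipid droplets, was listed at 2.29 FPKM in control and 16.5 FPKM in HuR-FKO (log2 ratio -2.85). Rab32 and Rab38, paralogs needed for the delivery of pigment enzymes to melanosomes, were listed at 0.711 and 6.65 FPKM (-3.22) and at 0.0712 and 10.7 FPKM. The Rab38 control value corresponds to under 1 fragment (about 0.69), and raised to 0.1 FPKM it gives a log2 ratio of -6.74, the lowest of the family. Rab32 was therefore the higher of the pair in control and Rab38 in HuR-FKO. Rab28, a ciliary protein, was listed at 4.85 and 8.35 FPKM (-0.78), closer to equal values than the other members of this list. Rab23, a regulator of hedgehog signalling at the cilium, was listed at 0 in control and 0.799 FPKM in HuR-FKO.

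Rab40 proteins carry a SOCS box that binds ubiquitin ligases, and 2 of them went opposite ways. Rab40c was listed at 0.802 FPKM in control and 5.32 FPKM in HuR-FKO (log2 ratio -2.73). Rab40b was under the filter, at 2.72 FPKM in control and 0.261 FPKM in HuR-FKO. Its log2 ratio of 3.38 was the highest of all 56 members and rests on about 50.0 and 8.01 fragments. Over all 56 members, 5 were higher in control (Rab40b, Rab21, Rab37, Rab6b and Rab44), and 10.2% of all protein-coding rows were. Of those 5 genes, Rab44 was at 0.0231 FPKM in control and listed at 0 in HuR-FKO. The members listed at 0 in both libraries were Rab3b, Rab15, Rab17, Rab19, Rab25, Rab26, Rab33a, Rab36, Rab39, Rab39b and Rab42. The 3 low members not yet named were at 0.297 and 1.59 FPKM (Rab3c), 0.0821 and 0.481 FPKM (Rab43) and 0.0223 and 0.484 FPKM (Rab9b). Rab7l1, whose symbol falls outside the rule, was listed at 1.77 and 17.2 FPKM.

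The proteins that load, inactivate and read Rab GTPases were counted from 4 lists with 135 rows, of which 32 were compared. At least 2-fold higher in HuR-FKO were 28 of these (87.5%), beside the 82.4% of all genes, and 1 was at least 2-fold higher in control. Their median log2 ratio was -2.60, with 21 genes below and 11 above the all-gene median. Most of the 32 were under 5 FPKM in control and entered only through their HuR-FKO value. The filter fixed the direction of those genes, so the counts are a description. All 3 compared genes for prenylation and GDP dissociation lay on the control side of the median. Gdi2, a GDP dissociation inhibitor, was listed at 19.3 FPKM in control and 34.3 FPKM in HuR-FKO (-0.83). Rabac1, which helps to place prenylated Rab proteins on membranes, was at 33.5 and 55.5 FPKM (-0.73). Their median was 1.39 above that of all genes.

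**Figure D4:**
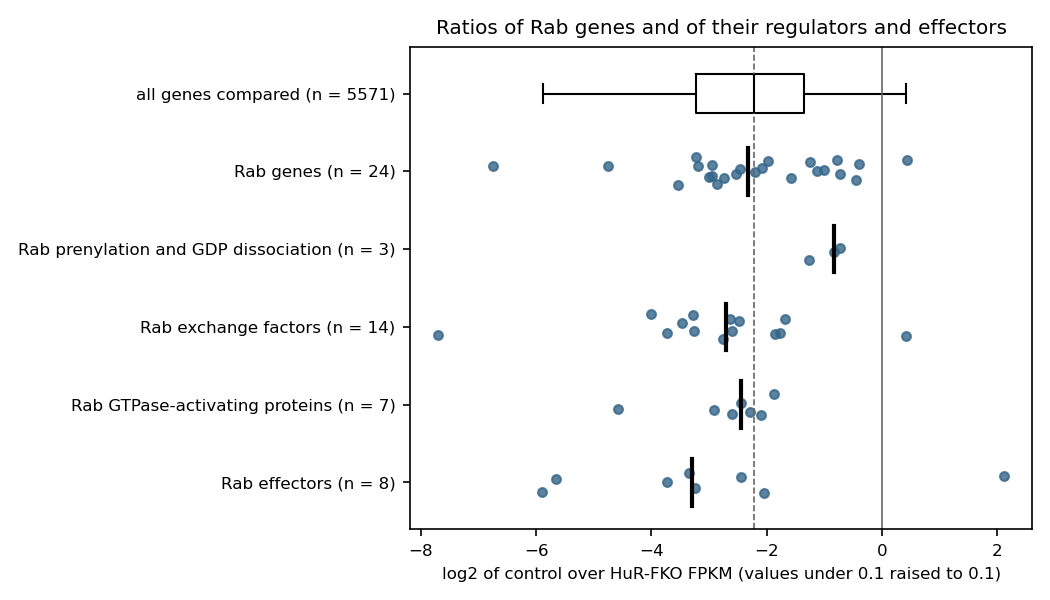
Log2 of control over HuR-FKO FPKM for all 5571 genes compared (box from the lower to the upper quartile, whiskers at the 5th and 95th percentiles), for the 24 Rab genes and for 4 lists of their regulators and effectors. Each point is a gene, the thick bar its list's median, the solid line equal values and the dashed line the median of all genes. The 3 genes of prenylation and GDP dissociation sit right of the dashed line, and 6 of the 8 effectors left of it.

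Exchange factors, which switch Rab proteins on, were at least 2-fold higher in HuR-FKO in 13 of 14 compared genes, beside 82.4% of all, with a median difference of -0.47 from all genes. Most of the 14 were under 5 FPKM in control, so the filter fixed the direction of those genes. Trappc3 and Trappc5, subunits of the TRAPP complexes that activate Rab1, were listed at 0.558 and 8.93 FPKM (16.0-fold) and at 1.04 and 10.1 FPKM (9.70-fold). The Trappc3 control value rests on about 7.01 fragments, so its ratio is imprecise. Madd, the exchange factor for Rab3 and Rab27, was listed at 1.87 and 24.7 FPKM (-3.72). Dennd2c, of the DENN family, was at 0.702 and 7.74 FPKM (-3.46). The exception was Trappc1, another TRAPP subunit, at 5.10 FPKM in control and 3.82 FPKM in HuR-FKO, named here after its values were seen. Hps4, part of the exchange factor for Rab32 and Rab38, was listed at 0 in control and 20.7 FPKM in HuR-FKO, and was likewise named after its values were seen. Hps1, of the same list but under the filter, went the other way, at 1.94 FPKM in control and 0.0359 FPKM in HuR-FKO. GTPase-activating proteins, which switch Rab proteins off, were at least 2-fold higher in HuR-FKO in 7 of 7, beside 82.4% of all compared genes, with a median difference of -0.22 from all genes. All 7 were under 5 FPKM in control, so the filter fixed their direction. Evi5 was listed at 0.246 and 5.85 FPKM (-4.57), its control value near 5.97 fragments. Tbc1d13, a GTPase-activating protein for Rab35, was at 1.38 and 10.3 FPKM (-2.91). Rabgap1 was at 3.48 and 21.1 FPKM (-2.60), and Tbc1d14, which acts with Rab11 in autophagy, at 1.52 and 8.23 FPKM (-2.44). Rabgap1 overlaps exons of Strbp, at 0.614 and 8.63 FPKM.

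Effectors, the proteins that GTP-bound Rabs recruit, had the lowest median of the 4 lists, a difference of -1.08 from all genes, with 7 of 8 at least 2-fold higher in HuR-FKO, beside 82.4% of all compared genes. Those 7 were under 5 FPKM in control, so the filter fixed their direction. Appl2, an endosomal adaptor that binds Rab5 and Rab21, was listed at 2.04 FPKM in control and 122 FPKM in HuR-FKO (-5.90). Plekhm1, which joins Rab7 to the lysosome fusion machinery, was at 0.238 and 12.0 FPKM (-5.66), and it overlaps the antisense gene Arhgap27os1, at 0 and 7.44 FPKM. Appl2 thus lay far toward HuR-FKO, while Rab21, which it binds, lay toward control. Unc13d, the Rab27a partner in granule release, was listed at 2.48 and 33.0 FPKM (-3.74). Ehbp1l1, which works with Rab8 in apical transport, was at 1.64 and 16.7 FPKM (-3.35). The gene at least 2-fold higher in control was Inpp5b, a phosphoinositide phosphatase that binds Rab5, at 7.10 FPKM in control and 1.64 FPKM in HuR-FKO (2.12), also named after its values were seen.

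In median and share, the 3' UTRs of the Rab genes were longer than those of all compared genes and more of them carried AUUUA, the core of AU-rich elements. All 24 compared members had an annotated 3' UTR, with a median length of 1422 bases and a range of 352 to 5774 bases, beside a median of 938 bases over the 5496 compared genes with one. AUUUA, read on the mRNA strand with overlapping copies counted, was present in 21 of 24 members (87.5%) and in 64.8% of all compared genes. Per kilobase the median was 1.58 copies in members and 1.14 in all genes, and the U content was 31.8% and 29.1%. Rab18 held the most copies with 19, while Rab13, Rab34 and Rab38 held 0. Across the 24 members the log2 ratio went with 3' UTR length at a Spearman rho of 0.43 and a Pearson r of 0.32, and over all compared genes the rho was -0.004. The 12 members above the all-gene median ratio had a median 3' UTR of 1781 bases, and the 12 below it 1315 bases. Rab34, Rab4b and Rab20, with 352, 396 and 479 bases, lay low on the ratio scale, while Rab9 with 455 bases did not. Copies of AUUUA per kilobase went less with the ratio, at a rho of 0.09 and a Pearson r of 0.17. Runs of U per kilobase had a rho of 0.0087 and a Pearson r of -0.09. The percentage of U had a rho of 0.27 and a Pearson r of 0.17. Over all compared genes the rho was 0.06 for AUUUA, 0.09 for runs of U and 0.15 for the percentage of U. These correlations are over genes of the same 2 libraries, which share depth and scaling, and stand as a description.

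**Figure D5:**
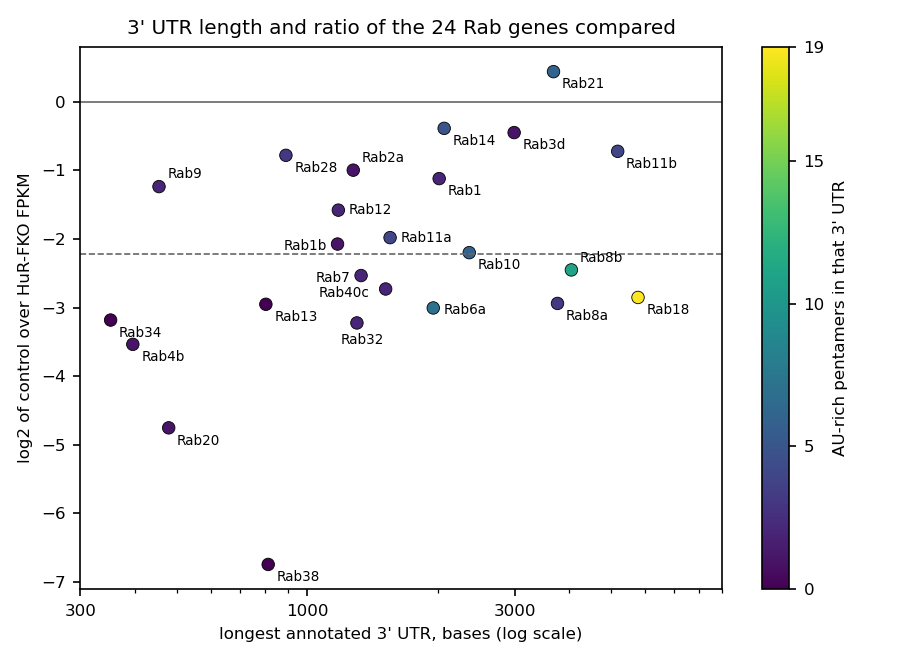
Log2 of control over HuR-FKO FPKM of the 24 compared Rab genes (y axis) against the length of the longest annotated 3' UTR in bases (x axis, log scale), coloured by the number of AU-rich pentamers in it. The solid line marks equal values and the dashed line the all-gene median. Rab34, Rab4b and Rab20 sit at the lower left, and Rab18, with 19 pentamers, lies below the dashed line.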

How the data were processed

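RNA immunoprecipitated with an anti-HuR antibody was sequenced from 1 library per genotype, grouped by the genotype label. The authors deposited FPKM values per gene for both libraries in 1 table, with no column of their own comparisons. Per the submitters' processing notes, mm10 was the build, and TopHat2 2.0.11, TopHat and Cufflinks 2.1.1 were used. The study's methods describe strand-specific libraries for its RNA-seq. Whether counting used strand, the annotation and the treatment of multiply mapped reads are not given in the sources used here. Since FPKM is relative to the total of a library, a few abundant RNAs lower the values of all others.

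Rows were joined by gene identifier to GENCODE M21 of the same build (36489 of 38396 matched), which gave biotypes and 3' UTRs. Starts were raised by 1 to count from 1. Values under 0.1 FPKM were raised to 0.1, and protein-coding genes that reached 5 FPKM in either library were compared, a call being a 2-fold difference. No test was possible. Library totals were estimated from the most frequent low value of genes with 1 transcript, assuming fragments of 200 bases. Values at a step (71 and 48) outnumbered those at 0.5 steps (21 and 13). Within 0.05 of a step, 38.3% of 488 low control values and 33.0% of 276 low HuR-FKO values were whole, where uniform values would give 10%, so fragments per gene are approximate. No interval is given for them. The steps were tested on simulated data. Python 3.11.15, pandas 2.3.3, numpy 2.4.6, scipy 1.17.1 and matplotlib 3.10.9 were used.

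The members and lists were chosen with earlier results of these data known. Named genes were each Rab gene at 5 FPKM in either library or listed at 0 in only 1 library, other Rab genes by value or range, Elavl1, up to 4 genes of each regulator list by absolute ratio (0.1 FPKM reached in each library), and genes sharing exon sequence with these. Alternatives were added constants of 0.1 and 1, filters of 1 and 20 FPKM, no filter, upper-quartile scaling, median centring, all rows, rows at 0 left out, members with an exon overlap left out, a 4-fold difference and mean 3' UTRs. A comparison limited to genes in the members' range was added after seeing the data. Some genes and 1 sequence named by this rule are not reported here.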

Additional observations from a re-analysis of the deposited data

How the results depend on the processing

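No paired analysis was possible because each genotype had 1 library, and for the same reason no replicate could be left out. The count of Rab genes at least 2-fold higher in HuR-FKO (18 of 24, 75% beside 82.4% of all genes) was 8 of 12 at a filter of 20 FPKM (66.7% beside 85%), 32 of 45 with no filter (71.1% beside 68.2%), 5 with median centring (20.8% beside 27%), 6 with upper-quartile scaling (25% beside 29.4%) and 10 of 15 without members that share exon sequence with another gene (66.7% beside 82.4%). At a 4-fold difference it was 14 of 24 (58.3% beside 57.1%). The members' share was thus above that of all genes with no filter and at a 4-fold difference, and below it in the others. The count at least 2-fold higher in control (0) was 1 at a filter of 1 FPKM and 1 with no filter (Rab40b), 6 with median centring and 5 with upper-quartile scaling, beside 19.4% and 17% of all genes. The difference between the median of the members and that of all genes (-0.11) was 0.060 with 1 added to both values, 0.31 at 20 FPKM, -0.35 with no filter and 0.64 without members that share exon sequence, so its sign depends on these choices. Of the regulators and effectors, 28 of 32 were at least 2-fold higher in HuR-FKO (87.5%), and 75 of 89 at 1 FPKM (84.3% beside 80.3% of all genes), 9 of 11 at 20 FPKM (81.8% beside 85%), 95 of 123 with no filter (77.2% beside 68.2%), 12 of 32 with either scaling (37.5% beside 27% and 29.4%) and 17 of 19 without exon overlaps (89.5%). Genes with an exon overlap were left out of the members and regulator lists only, and the all-gene values still included them. Median centring shifted every log2 ratio by 2.09 and upper-quartile scaling by 1.98. The ratios then changed sign to 0.97 and 0.85 for Rab1, 0.51 and 0.40 for Rab12 and 0.86 and 0.74 for Rab9, and under median centring alone to 0.11 for Rab11a and 0.019 for Rab1b. Rab14 (1.71 and 1.59), Rab3d (1.64 and 1.53), Rab11b (1.37 and 1.25), Rab28 (1.31 and 1.19) and Rab2a (1.10 and 0.98) changed sign as well. The relation with 3' UTR length (rho 0.43) was 0.30 with the mean over annotated 3' UTRs. The scaling shifts follow from their construction, and the cause of the other changes was not tested. Depth limits Rab20 and Rab38, each with under 10 estimated fragments in the lower library.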
